A study of Rattus norvegicus with 12 samples.

Results

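Pld1 and Napepld are genes whose products carry the name phospholipase D, and they were described across 4 groups of rat thoracic aorta. They were found by the RefSeq accession that the array gives beside each probe. Probe A_44_P338970 carried NM_030992, an accession of Pld1, and probe A_44_P451930 carried NM_199381, an accession of Napepld. These were 2 of the 38321 probes that were not controls, and each was repeated as 10 spots on every array.

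Phospholipase D enzymes cut the head group from a phospholipid of the membrane. Pld1 encodes a classical phospholipase D that turns phosphatidylcholine into phosphatidic acid and choline, is switched on by protein kinase C, and takes part in vesicle traffic and in signalling from receptors. Napepld encodes NAPE-PLD, a zinc metallohydrolase unrelated to Pld1 in sequence, which releases N-acylethanolamines from N-acyl-phosphatidylethanolamine. One of these products is anandamide, an endocannabinoid that relaxes many blood vessels. In vascular smooth muscle, phosphatidic acid and the diacylglycerol made from it act as signals in contraction and growth.

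RNA came from the thoracic aorta of male rats, and each group had 3 Agilent arrays read in the single colour Cy3. WKY were Wistar-Kyoto rats, the normotensive strain, given water. SHR-C were spontaneously hypertensive rats (SHR) given water, SHR-Bh were SHR given the high dose of BSJY, a preparation of 8 herbal granules (6.75 g/ml/day as the labels write it), and SHR-Ca were SHR given captopril (0.125 g/ml/day), an inhibitor of angiotensin-converting enzyme. All were dosed by mouth once a day for 16 weeks from an age of 12 weeks, which makes 28 weeks, while the sample labels give 32 weeks. The labels' treatment text also says that the aortas of both strains were irradiated, with no dose. The labels do not say whether an array held the RNA of 1 rat, and p-values here speak only of the variation among these arrays, which may be technical. Having 3 arrays per group limits the precision of every value.

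Going by scan time, the arrays fell into 5 sessions. The 3 WKY arrays formed a session of their own, 629 days after the first SHR session, and every comparison with WKY is one between sessions as well: strain and session cannot be told apart. A second session held replicates 2 and 3 of SHR-C with replicates 1 and 2 of SHR-Ca, and another held replicates 1 and 3 of SHR-Bh with SHR-Ca 3. SHR-C 1 and SHR-Bh 2 were each scanned alone. Sessions here are arrays with the same scan time: by calendar day, SHR-Bh 2 came 4 days after the other SHR arrays, which shared a day. Levels were scaled by the array's 75th percentile, which lay between 182.0 and 384.8 (intensity) for WKY and between 109.8 and 190.2 for the 9 SHR arrays. Of all probes, 74.0% to 87.9% stood well above background in WKY against 51.2% to 68.6% in SHR. None of 43 markers of smooth muscle, endothelium, fibroblasts, fat, immune cells, nerve and blood had a named probe, so the tissue label was not checked against them. None of 48 other genes of the phospholipase D and N-acylethanolamine pathways, among them Pld2, Faah, Cnr1, Arf6 and Prkca, had a named probe either.

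The letters of the array's probes were not used here, so the stretch upstream of each gene is shown to let the 2 genes be compared by sequence. The lines below hold the 150 bases before the start that RefSeq gives each gene, read 5′ to 3′ on the plus strand of build GRCr8, at chr2:112822026-112822175 for Pld1 and chr4:14253110-14253259 for Napepld. Capitals mark the letters of a GC box, GGGCGG on either strand.
Pld1: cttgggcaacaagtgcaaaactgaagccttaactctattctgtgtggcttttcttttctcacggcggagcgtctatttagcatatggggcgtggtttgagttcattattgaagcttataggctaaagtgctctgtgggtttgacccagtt
Napepld: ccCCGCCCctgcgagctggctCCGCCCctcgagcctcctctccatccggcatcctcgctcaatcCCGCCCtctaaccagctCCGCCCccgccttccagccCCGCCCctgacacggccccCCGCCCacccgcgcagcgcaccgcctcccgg
Napepld had 6 GC boxes in this window and Pld1 had none. Over the 250 bases before the start, Napepld had 8 GC boxes, 29 CpG dinucleotides and 77.2% G and C, while Pld1 had 0 GC boxes, 5 CpG and 45.2% G and C. Of 33469 rat promoters of that length, 30.5% held a GC box, 0.167% held at least 8, and the median share of G and C was 51.2%. Searched on both strands of the 250 bases, neither gene matched the TATA box TATAAA, which 12.9% of those promoters held. Neither matched the CCAAT box, spelled by its name, which 34.0% held. The cyclic AMP response element TGACGTCA, held by 1.59%, and the E-box CACGTG, held by 5.59%, were also without a match in either gene. These are matches of letters in a window, and the arrays did not measure binding there.

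Pld1 was measured on every array. All 120 of its spots were well above background by the scanner software's flag and none was an outlier. The geometric mean intensity of its 10 spots was 41.2, 105.9 and 114.4 on WKY 1 to 3, and 87.9, 73.8 and 99.96 on SHR-C 1 to 3. It was 82.7, 143.8 and 115.0 on SHR-Bh 1 to 3, and 54.7, 243.3 and 108.8 on SHR-Ca 1 to 3. The lowest array was thus WKY 1 and the highest SHR-Ca 2. Before any scaling the intensities of the 4 groups overlapped, with WKY 2 and WKY 3 above all 3 SHR-C arrays. Between the 10 spots of an array the log2 SD was 0.066 at the median (0.028 to 0.22), widest on WKY 1, where 1 spot stood at 62.1 and the lowest at 37.1.

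**Figure D1:**
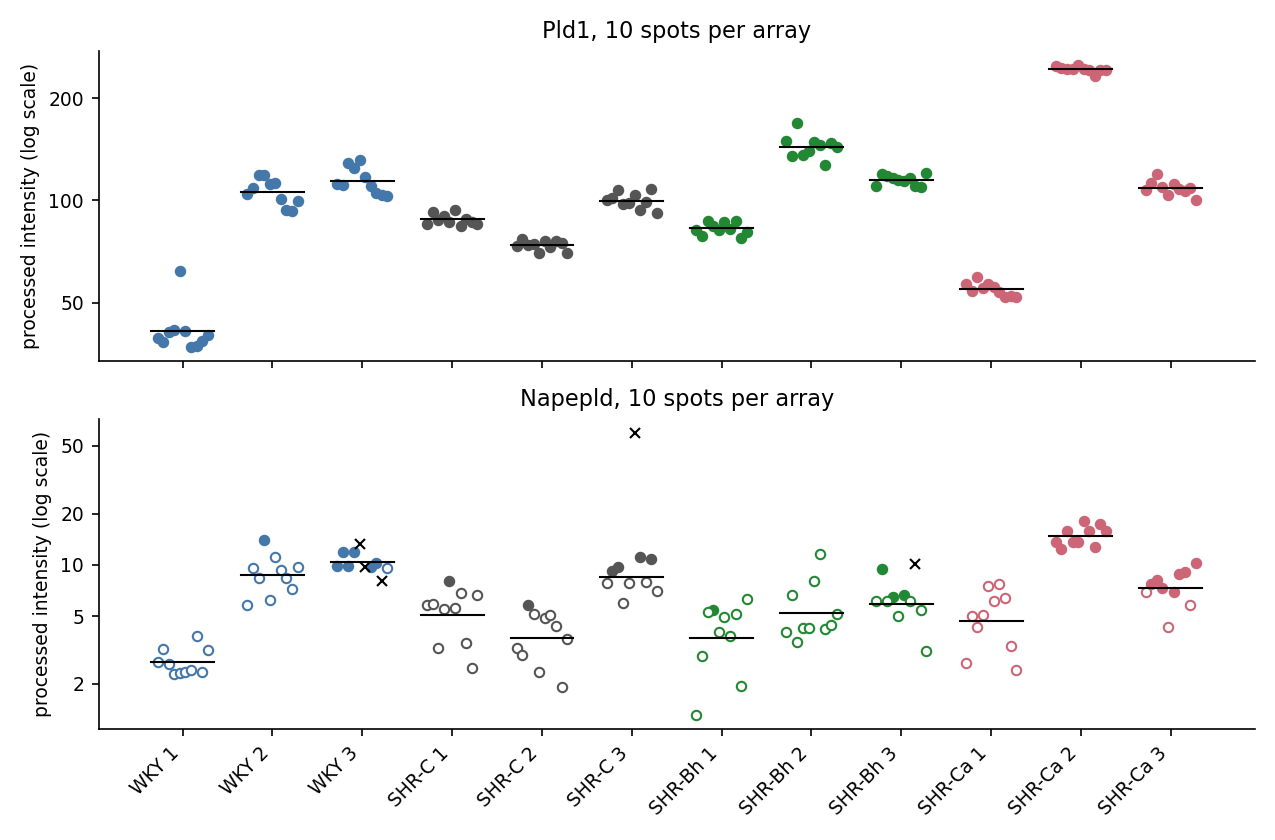
Processed intensity of each of the 10 spots of Pld1 (top) and Napepld (bottom) on the 12 arrays, on log axes. Filled points were well above background, open points were not, crosses are outlier spots left out, and bars are the geometric mean of the spots used. Pld1 runs from 41.2 on WKY 1 to 243.3 on SHR-Ca 2 with tight spots, while Napepld lies between 2.68 and 14.8 with wide spots.

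Levels below are log2 intensity minus the log2 75th percentile of the array. The Pld1 level was -2.14, -1.70 and -1.75 on WKY 1 to 3 (mean -1.87 ± 0.24, SD, n = 3). On SHR-C 1 to 3 it was -1.11, -1.05 and -0.59 (mean -0.92 ± 0.28). All 3 SHR-C arrays lay above all 3 WKY arrays. On SHR-Bh 1 to 3 it was -0.41, -0.36 and -0.38 (mean -0.38 ± 0.026), the narrowest spread of the 4 groups and above every SHR-C array. On SHR-Ca 1 to 3 it was -1.31, 0.41 and -0.29 (mean -0.40 ± 0.86). SHR-Ca 1 lay below all SHR-C arrays and SHR-Ca 2 above every other array, so this group spanned the range of the other SHR groups. From high to low the order of means was SHR-Bh, SHR-Ca, SHR-C and WKY. The neighbours SHR-Bh and SHR-Ca differed by less than the SD of SHR-Ca, SHR-Ca and SHR-C overlapped, and SHR-C and WKY did not overlap.

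**Figure D2:**
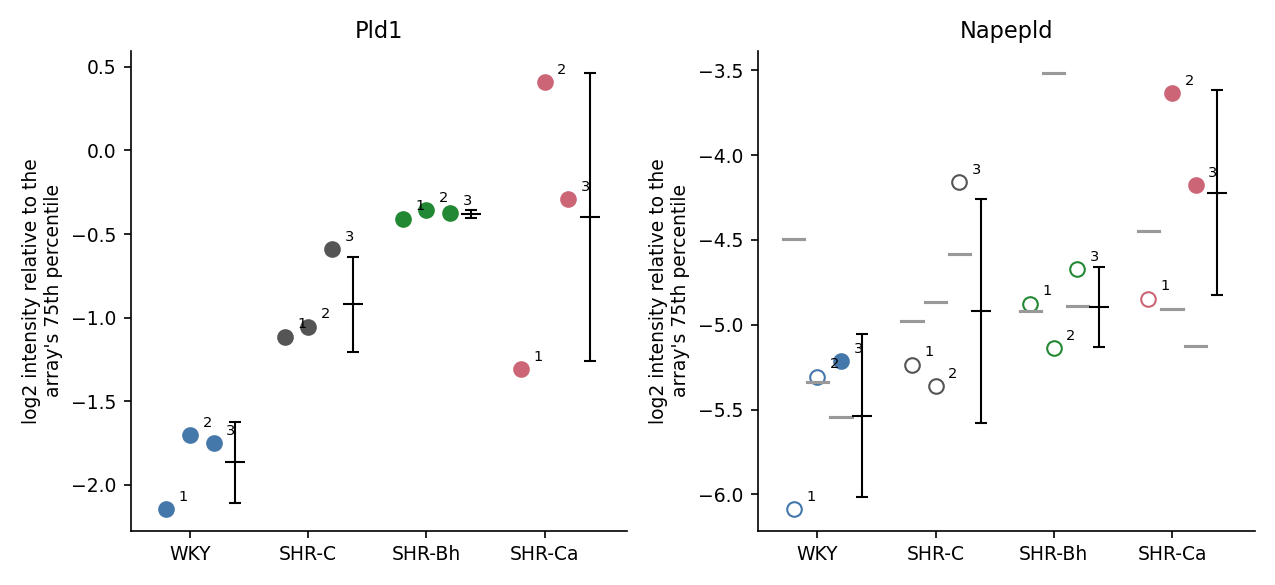
Level of Pld1 (left) and Napepld (right) on each array, in log2 units above or below that array's 75th percentile, by group with the replicate number beside each point and the mean ± SD (n = 3) in black. Filled points were well above background on that array, and grey dashes in the right panel are the dimmest probe that still cleared background there. The Pld1 levels of the 9 SHR arrays, -1.31 to 0.41, lie above the WKY arrays, -2.14 to -1.70.

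Untreated hypertensive rats were first set against the normotensive strain. Pld1 was 1.93-fold higher in SHR-C, a difference of 0.95 (SE 0.37, 95% interval 0.14 to 1.75, limma adjusted p = 0.043), and higher in 9 of 9 pairs of arrays. In RNA of a whole tissue, more cells of a type and more RNA per cell cannot be told apart. A passing call was common here: 61.7% of the 29618 tested probes passed, 21.9% of the tested probes passed with the higher level in SHR-C, and for 26.9% every SHR-C array lay above every WKY array. The median change over all tested probes was -0.42, and 21% of probes rose by more than Pld1. Relative to that median Pld1 was higher by 1.37. Leaving out any single array of these 6 ended the call, with an adjusted p of 0.053 to 0.14 and a difference of 0.78 to 1.04. These fits kept the arrays of SHR-Bh and SHR-Ca, whose spread enters the SE. With only SHR-C and WKY fitted, all 6 arrays gave an SE of 0.24 (limma adjusted p = 0.011).

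The size of this difference depended on the scaling. Unscaled, the geometric mean intensity was 79.3 in WKY and 86.6 in SHR-C, a difference of 0.13 (adjusted p = 0.86), while the median over all tested probes changed by -1.24. With the 75th percentile taken over probes bright on all 12 arrays the difference was 0.63 (adjusted p = 0.14). With quantile normalization it was 1.57 (adjusted p = 0.0030), with the array median subtracted 1.77 (adjusted p = 0.0020), and with normexp background correction 0.67 (adjusted p = 0.041). With 12 probes for reference genes as the scale it was 0.95 (adjusted p = 0.055). The difference was above 0 in each of these settings, and it exceeded the median change over all probes by 0.49 with normexp, 1.66 with quantile normalization and, by construction, 1.37 in the settings that subtract 1 number per array or none. The split of calls over all probes also moved with the scale: 6489 of 18281 were higher in SHR-C with the 75th percentile, 1734 of 16364 unscaled, 8325 of 17441 with quantile normalization, 6183 of 10830 with normexp and 11295 of 18795 with the array median.

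**Figure D3:**
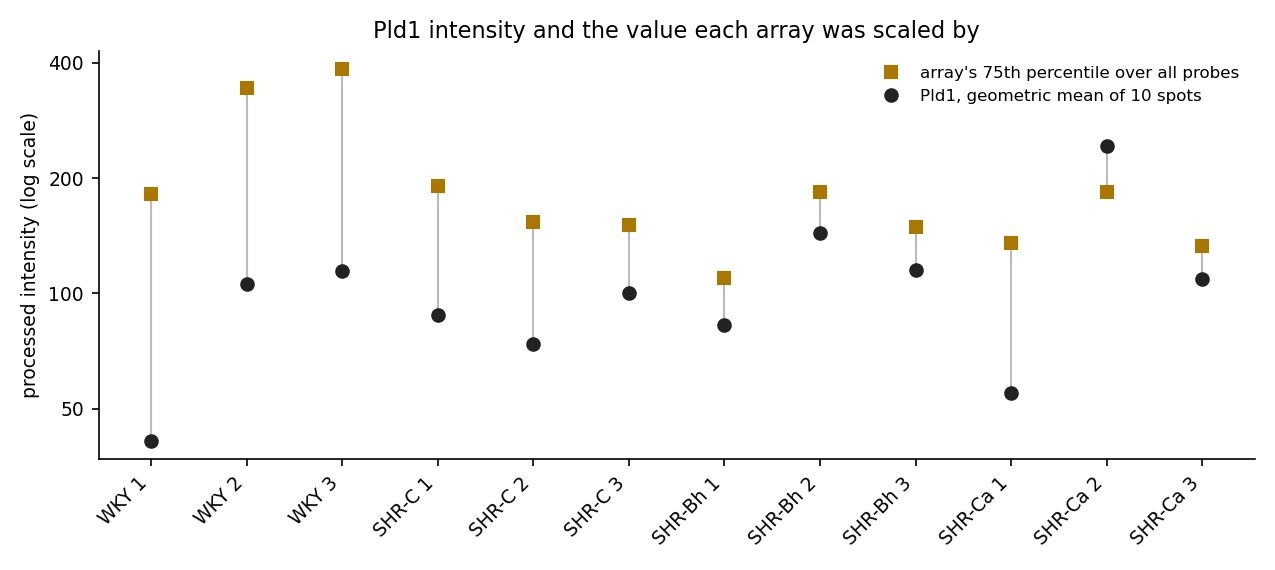
Geometric mean intensity of the 10 Pld1 spots (circles) and the 75th percentile of all probes (squares) on each array, on a log axis, with a line joining the values whose ratio is the level. The squares stand at 182.0 to 384.8 on WKY and at 109.8 to 190.2 on SHR arrays, while the circles of WKY 2 and 3 (105.9 and 114.4) lie among those of the SHR arrays.

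Treated SHRs were also compared with WKY, using the same WKY arrays. Pld1 was 2.80-fold higher in SHR-Bh than in WKY, a difference of 1.49 (SE 0.37, limma adjusted p = 0.0040), where 67.2% of tested probes passed and 24.4% passed as higher. It was 2.77-fold higher in SHR-Ca, a difference of 1.47 (SE 0.37, adjusted p = 0.0043), where 66.4% passed and 23.5% passed as higher. In both comparisons all 9 pairs of arrays ran the same way, with no overlap, which 27.7% of probes also showed for SHR-Bh and 25.2% for SHR-Ca. The 2 calls held without any 1 array of the groups compared, with differences of 1.35 to 1.57 for SHR-Bh and 1.07 to 1.92 for SHR-Ca. Unscaled they were 0.49 (adjusted p = 0.47) and 0.51 (adjusted p = 0.44), and the calls were lost.

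The effect of high-dose BSJY in hypertensive rats was read from SHR-Bh and SHR-C. Pld1 did not pass: the difference was 0.54 (SE 0.37, 95% interval -0.27 to 1.35, limma adjusted p = 0.59), an interval from 0.83-fold to 2.55-fold. This SE takes in the wide spread of SHR-Ca (SD 0.86). With only SHR-Bh and SHR-C fitted, the SE was 0.24 and Pld1 still did not pass (adjusted p = 0.52). All 3 SHR-Bh arrays lay above all 3 SHR-C arrays, as was so for 5.89% of probes, and 0.0945% of tested probes passed. Unscaled, the SHR-Bh and SHR-C arrays overlapped. No session held both groups, although all SHR-C arrays and all SHR-Bh arrays but SHR-Bh 2 were scanned on the same day. With the session as a block, linked through SHR-Ca arrays, the difference was 0.27 with a wider SE of 0.93 (adjusted p = 1).

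For captopril the groups were SHR-Ca and SHR-C. Pld1 differed by 0.52 (SE 0.37, 95% interval -0.29 to 1.33, limma adjusted p = 0.56) with overlapping groups, and 0.28% of tested probes passed. The value rested on 1 array or another: leaving out SHR-Ca 2 gave 0.12 (adjusted p = 0.94) and leaving out SHR-Ca 1 gave 0.98 (adjusted p = 0.13). SHR-Ca 1 and SHR-Ca 2 shared a scan session, yet the Pld1 intensity was 4.44-fold higher on SHR-Ca 2 and the level 3.28-fold higher, while the spots of each array had an SD of 0.064 and 0.028 on the log2 scale. Within that session, with 2 arrays of each group, the difference was 0.37.

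The 2 treatments were set side by side at the dose each group received. Pld1 differed by 0.017 between SHR-Bh and SHR-Ca (SE 0.37, 95% interval -0.79 to 0.83, limma adjusted p = 0.99), an interval that runs from 0.58-fold to 1.77-fold. In limma 0% of tested probes passed here, with 2126 at an unadjusted p under 0.05. The sign turned with the scaling and with the array left out, from -0.44 without SHR-Ca 1 to 0.42 without SHR-Ca 2, so no order of the treatments was measured. Within the session that held SHR-Bh 1, SHR-Bh 3 and SHR-Ca 3, the difference was -0.099.

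**Figure D4:**
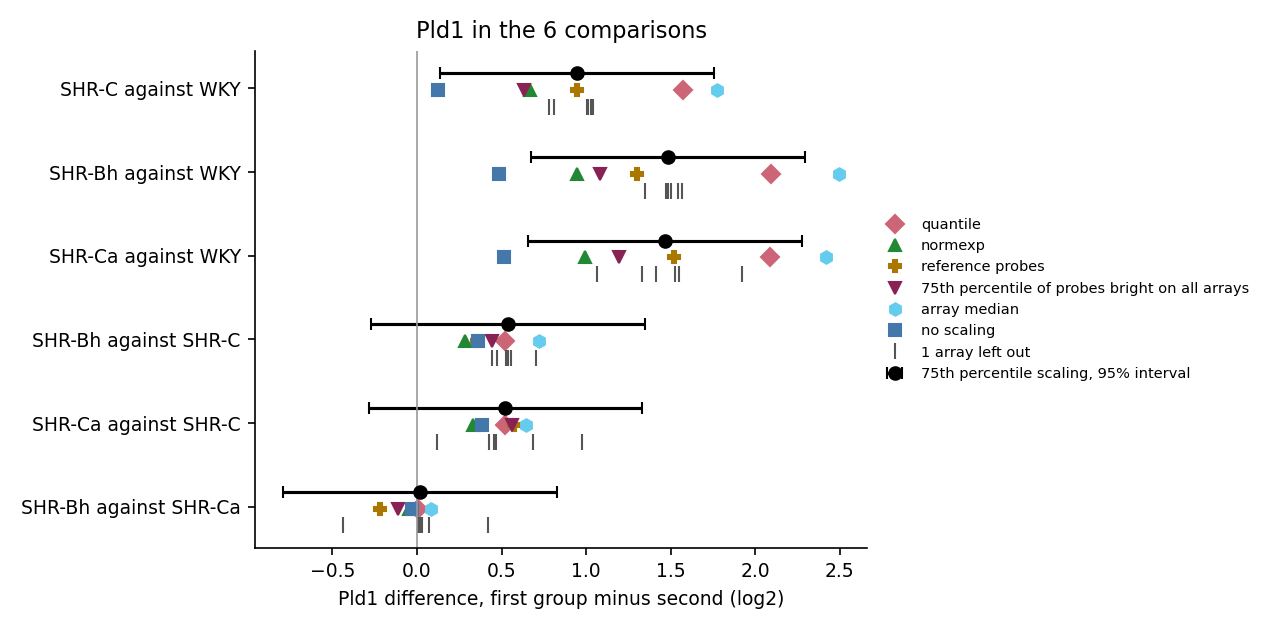
Difference of Pld1 in the 6 comparisons, first group minus second, on the log2 scale. Black circles carry the 95% interval of the limma fit with 75th percentile scaling, coloured symbols are other scalings or background corrections, and grey ticks leave out 1 array. The comparisons with WKY lie above 0, from 0.13 to 2.5 over the settings drawn, and the 3 between SHR groups have intervals that include 0.

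Napepld stood close to background. A probe counted as well above background on an array when at least 50% of its spots were, and Napepld met this on WKY 3 (6 of 7 spots used), SHR-Ca 2 (10 of 10) and SHR-Ca 3 (7 of 10). On the other arrays 0 to 4 spots met it: 0 on WKY 1 and 1 on WKY 2, then 1, 1 and 4 on SHR-C 1 to 3, 1, 0 and 3 on SHR-Bh 1 to 3, and 0 on SHR-Ca 1. The weaker flag, a signal significantly above background, was set for 106 of the 115 spots used, and fell to 4 of 10 on WKY 1 and 7 of 10 on SHR-Bh 2. Since no group had the probe well above background on all 3 arrays, Napepld was not tested in the main fit. With all 38321 probes tested instead, its limma adjusted p against WKY was 0.22 for SHR-C, 0.20 for SHR-Bh and 0.016 for SHR-Ca. The SHR-Ca value takes in WKY 1, where 0 of 10 spots were well above background. Of all probes, 57.7% passed in that comparison, so a pass was common.

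The geometric mean intensity of Napepld was 2.68, 8.71 and 10.4 on WKY 1 to 3 and 5.05, 3.73 and 8.44 on SHR-C 1 to 3. It was 3.74, 5.23 and 5.85 on SHR-Bh 1 to 3 and 4.71, 14.8 and 7.36 on SHR-Ca 1 to 3. SHR-Ca 2 was highest and WKY 1 lowest, as for Pld1. The log2 SD between spots was 0.40 at the median, against 0.066 for Pld1, and the software's own error was 14.6% to 99.7% of the signal, against 10.0% to 11.8% for Pld1. On SHR-C 3 a spot at 59.5 was an outlier and was left out, where the other 9 ran from 6.01 to 11.1.

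As a level, Napepld was -6.08, -5.31 and -5.21 on WKY 1 to 3 (mean -5.53 ± 0.48, SD, n = 3) and -5.23, -5.36 and -4.16 on SHR-C 1 to 3 (mean -4.92 ± 0.66). It was -4.88, -5.14 and -4.67 on SHR-Bh 1 to 3 (mean -4.90 ± 0.23) and -4.85, -3.64 and -4.18 on SHR-Ca 1 to 3 (mean -4.22 ± 0.61). The readings of SHR-Bh and of SHR-Ca lay above those of WKY on every array, which 27.7% and 25.2% of tested probes also showed. The other pairs of groups overlapped. This separation is among values near background and depended on the scaling. It stayed with quantile normalization and with the array median. Unscaled, WKY 3 (log2 3.38) lay above all SHR-Bh arrays. With normexp, WKY 1 (-1.60) lay above SHR-Bh 2 (-1.87) and SHR-Ca 2 (-1.72). The 4 groups have no order, since SHR-C and SHR-Bh were not well above background on any array, WKY was on 1 and SHR-Ca on 2. These means include values near background, and the dimmest probe that cleared background stood at -5.54 to -4.50 on WKY arrays, -5.12 to -4.45 on 8 SHR arrays and -3.51 on SHR-Bh 2.

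No fold of Napepld between groups is given, since each group held at least 1 array on which it was not well above background. As read from the spots, the level was 1.31 higher in SHR-Ca than in WKY, with 2 and 1 of 3 arrays well above background. This includes WKY 1 at -6.08, where 0 of 10 spots were well above background. Without WKY 1 it was 1.04. With every array held at no less than its dimmest probe that cleared background, the means were -4.09 in SHR-Ca and -5.00 in WKY, -4.67 in SHR-C and -4.35 in SHR-Bh. The SHR-Bh mean includes SHR-Bh 2 raised from -5.14 to -3.51, so these means give no order of the groups. The difference of 1.31 became 0.36 unscaled and 2.38 with quantile normalization.

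The 5 named genes with the profile nearest to Pld1 over the 12 arrays were taken from 31 other named genes that were tested, by the root mean square difference of log2 levels after each gene was centred on its own mean. Nat1, an arylamine N-acetyltransferase, was nearest at 0.29. Ndfip2 (0.33) and Ndfip1 (0.41), adaptors of Nedd4-family ubiquitin ligases, Pdcd10 (0.38), a gene of vessel stability, and Enpp1 (0.39), which makes pyrophosphate from extracellular ATP, followed. Likeness was judged over arrays that include WKY and SHR-C, so a like step between these groups was part of the choice, and 22 of the 31 genes had the higher mean in SHR-C. The means differed by 0.88 for Nat1, 0.99 for Ndfip2, 1.06 for Pdcd10, 1.38 for Enpp1 and 1.26 for Ndfip1, against 0.95 for Pld1. Pld1 stood apart from them on SHR-Ca 1, at -0.42 from its own mean, where Nat1 was at 0.25. On SHR-Ca 2 Pld1 was at 1.30, above all 5, with Nat1 at 1.17 and the others at 0.27 to 0.88. Pld1 also lay above all 5 on SHR-Bh 1 (0.48 against -0.039 to 0.20) and SHR-Ca 3 (0.60 against 0.045 to 0.45). On SHR-C 1 it lay below all 5, narrowly (-0.22, with Nat1 at -0.21). The arrays share the scaling, so profiles share its error. For Napepld the nearest were Nat1 (0.38), Pld1 (0.40), Ndfip2 (0.43), Rpl13a (0.45), a protein of the large ribosomal subunit, and Pdcd10 (0.46), among 32 genes, with most Napepld values near background.

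**Figure D5:**
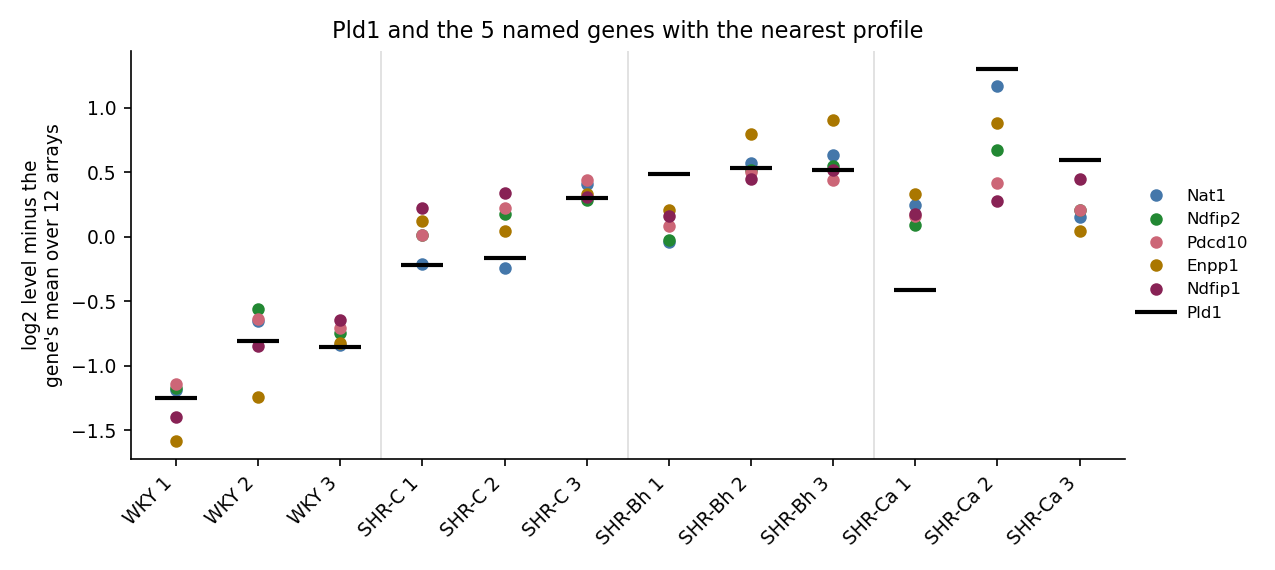
Log2 level of Pld1 (black bars) and of the 5 named genes with the nearest profile (points) on each array, minus the gene's mean over the 12 arrays. The WKY arrays lie below 0 for all 6 genes, and on SHR-Ca 1 the Pld1 bar, at -0.42, lies below the other 5.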

How the data were processed

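Expression was measured on 12 single-colour arrays in 4 groups of 3, assigned by title. The authors deposited 1 scanner file per array with the intensity of 43040 spots. Background and spatial trends were subtracted within the array by Feature Extraction 11.0.1.1 from Agilent, per the file headers, and no step between arrays is recorded. Its flags (other values, 0 or 1 per spot, as deposited) mark outliers, saturation and spots well above background.

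Without outlier spots, a probe's log2 intensities were averaged and expressed relative to the array's 75th percentile. Tests covered the 29618 (77.3%) of 38321 probes that cleared background throughout some group of 3. A single limma fit (3.58.1, R 4.3.3) held the 4 group means, and p-values were adjusted by Benjamini-Hochberg within each comparison (threshold 0.05). Each probe had 1 estimate of spread shared by the 4 groups, so a wide group widened the SE of every comparison. The fit was tested on simulated data. Accessions were matched to RefSeq's rat genes (GRCr8), which named 39 probes of 38 genes, 32 of them tested. The array design names another build, so no gene coordinates are given besides the promoters. The 2 genes, the lists and the settings were chosen with earlier results of these data known. Named genes were Pld1, Napepld, any pathway gene with a named probe, and the 5 nearest profiles to each of the 2. Normexp (offset 50) used the spot and background medians in place of the planned spot mean. Other settings are compared in the closing section. Over 29514 probes, same-numbered arrays deviated together (correlation over 0.1) in all 3 pairs of SHR-C with WKY (0.18 to 0.48) and of SHR-Bh with WKY (0.15 to 0.31), and in 1 of the 12 pairs of the other comparisons. By the rule that every pair exceed 0.1, a block by replicate number was also fitted for these 2 comparisons. These correlations do not show that the arrays were paired. The labels name nothing that same-numbered arrays share, and same-numbered SHR-Bh and SHR-C arrays ran from -0.18 to 0.12.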

Additional observations from a re-analysis of the deposited data

How the results depend on the processing

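Pld1 in SHR-C against WKY kept its direction in the 22 other settings run and passed in 11. It fell short with the 75th percentile of probes bright on all arrays (0.63), no filter (0.95, adjusted p = 0.052), the scan session as a random block (0.95, adjusted p = 0.068), no scaling (0.13), 12 reference probes (0.95, adjusted p = 0.055) and without any 1 array (0.78 to 1.04). Pld1 in SHR-Bh and SHR-Ca against WKY failed only unscaled (0.49 and 0.51), with 1.35 to 1.57 and 1.07 to 1.92 when 1 array was left out. Pld1 in SHR-Bh and in SHR-Ca against SHR-C stayed above 0 and unpassed in 21 settings each. SHR-Bh against SHR-Ca turned to -0.12 with the percentile of bright probes, -0.047 with normexp, -0.099 with the session block, -0.027 unscaled and -0.22 with reference probes, and ran from -0.44 to 0.42 with 1 array left out.

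Napepld moved by over 1 SD against WKY with quantile normalization (1.53 for SHR-C, 1.86 for SHR-Bh, 2.38 for SHR-Ca), the array median (1.44, 1.65, 2.26) and no scaling (-0.20, -0.36, 0.36), for SHR-Bh with the percentile of bright probes (0.23), and for SHR-Ca with normexp (0.66). With normexp SHR-Ca against SHR-C was -0.034 and SHR-Bh against SHR-Ca -0.046. With no filter SHR-Ca against WKY was 1.31 (adjusted p = 0.016), while SHR-C and SHR-Bh did not pass. Causes were not tested beyond the settings' own construction. Over all probes, calls ran from 0 to 269 for SHR-Bh against SHR-C (28 as reported), 0 to 209 for SHR-Ca against SHR-C (83) and 9554 to 21765 for SHR-C against WKY (18281). The filter changes the number tested. Calls for SHR-C, SHR-Bh and SHR-Ca against WKY were 18281, 19900 and 19655 of 29618 (61.7%, 67.2% and 66.4%). The strict filter gave 9554, 10642 and 10453 of 17797 (53.7%, 59.8% and 58.7%). Normexp gave 10830, 11988 and 12284 of 29618 (36.6%, 40.5% and 41.5%). SHR-Bh against SHR-Ca gave 20, not 0, without SHR-Bh 1.

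With the replicate block Pld1 was 0.95 in SHR-C against WKY (adjusted p = 0.033), and 0.95 (adjusted p = 0.011) with the block and only these groups, and no call of Pld1 changed. The planned difference of Pld1 and Napepld within an array was not run, because Napepld was not measured on every array of any group. The unscaled, reference-probe and last-named block settings were chosen after seeing the data. Signal over background limits Napepld, and 3 arrays per group limit Pld1. The comparisons of Pld1 with WKY are also limited by the choice of scaling and by the scan session, which cannot be told apart from strain.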
